A study of Homo sapiens with 4 samples.

Results

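The genes described here are 10 cytokine receptor genes of T47D cells, a human luminal breast cancer cell line that expresses the progesterone receptor (PR): *IL20RA*, *IL20RB*, *IL22RA1*, *IL10RB*, *IL6ST*, *IL6R*, *LIFR*, *OSMR*, *IL13RA1* and *IL1R1*. They were selected by their symbols, all 10 of them among the 23287 gene symbols of the RNA-seq files, and the selection was made with the RNA-seq values of these libraries known, so that their levels and changes are a description and carry no test. One RNA-seq library came from cells given 10 nM R5020, a synthetic progestin, for 3 h and the other from cells given the vehicle, ethanol (EtOH), for 3 h. The ChIP-seq library held the DNA immunoprecipitated with an antibody against the PR after 10 nM R5020 for 1 h. All cells had been moved to hormone-depleted (charcoal-stripped) serum before treatment. By the methods of the paper, the time in this serum was shorter for the RNA-seq cells than for the ChIP-seq cells. Each condition had 1 library, so how much separate cultures vary is unknown, and every difference below is a difference between 2 libraries of 1 cell line.

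Cytokine receptors are assembled from chains, and most of these chains have no enzyme activity of their own. In the class II group, the chain encoded by *IL20RA* pairs with that of *IL20RB* to bind IL-19, IL-20 and IL-24, and with that of *IL10RB* to bind IL-26. The chain encoded by *IL22RA1* pairs with *IL20RB* for IL-20 and IL-24 and with *IL10RB* for IL-22. *IL6ST* encodes gp130, the signalling chain shared by the receptors for IL-6 (with *IL6R*), leukaemia inhibitory factor (with *LIFR*) and oncostatin M (with *LIFR* or *OSMR*). *IL13RA1* encodes a chain that pairs with the product of *IL4R*, and *IL1R1* encodes the IL-1 receptor, whose co-receptor chain is encoded by *IL1RAP*. All but the last of these receptors signal through JAK kinases and STAT transcription factors, whereas *IL1R1* signals through the adaptor encoded by *MYD88* and the IRAK kinases.

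The DNA shown first is that of the PR binding sites that lay inside or within 50 kb of a member, so that the sequences can be read beside the distances and changes that follow. There were 4 such genes, *IL20RA*, *IL6ST*, *LIFR* and *OSMR*, with 1 site each. In the lines below the 300 bases around the midpoint of each site are given 5′ to 3′ on the plus strand of GRCh37, the assembly of hg19, and capitals mark the 15 bases that come closest to the palindromic progesterone response element (PRE) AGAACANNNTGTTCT. In the *OSMR* window 2 stretches matched equally well, and the first is marked.
*IL20RA* site, chr6:137368137-137368436: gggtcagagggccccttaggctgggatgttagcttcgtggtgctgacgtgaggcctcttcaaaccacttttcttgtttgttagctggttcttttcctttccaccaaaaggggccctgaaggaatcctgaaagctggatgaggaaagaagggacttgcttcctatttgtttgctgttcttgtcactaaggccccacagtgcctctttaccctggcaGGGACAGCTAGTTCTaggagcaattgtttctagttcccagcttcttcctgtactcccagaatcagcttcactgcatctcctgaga
*IL6ST* site, chr5:55291019-55291318: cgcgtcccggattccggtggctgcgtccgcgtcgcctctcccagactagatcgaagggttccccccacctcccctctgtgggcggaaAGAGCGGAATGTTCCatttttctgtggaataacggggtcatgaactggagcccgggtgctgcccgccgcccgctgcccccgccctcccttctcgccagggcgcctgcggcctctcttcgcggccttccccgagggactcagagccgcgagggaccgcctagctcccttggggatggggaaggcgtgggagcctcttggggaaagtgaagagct
*LIFR* site, chr5:38467035-38467334: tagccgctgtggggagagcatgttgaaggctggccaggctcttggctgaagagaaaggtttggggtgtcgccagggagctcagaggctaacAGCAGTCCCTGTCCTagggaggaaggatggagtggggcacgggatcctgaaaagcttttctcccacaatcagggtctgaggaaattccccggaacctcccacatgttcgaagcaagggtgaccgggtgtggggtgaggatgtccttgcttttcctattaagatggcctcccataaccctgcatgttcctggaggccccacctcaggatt
*OSMR* site, chr5:38891836-38892135: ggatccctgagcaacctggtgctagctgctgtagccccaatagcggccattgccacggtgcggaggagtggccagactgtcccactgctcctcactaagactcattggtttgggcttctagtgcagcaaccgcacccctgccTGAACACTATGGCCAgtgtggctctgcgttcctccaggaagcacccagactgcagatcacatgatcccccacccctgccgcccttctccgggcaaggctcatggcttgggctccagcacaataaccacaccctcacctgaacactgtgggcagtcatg

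The capitals matched 9 of the 12 defined letters of the PRE in the *IL20RA* and *IL6ST* sites and 8 of 12 in the *LIFR* and *OSMR* sites. Among 11178 windows of the same length around all PR binding sites, 14.8% held a match of 9 letters or more and 56.3% one of 8 or more, so none of the 4 sites stood out by this measure. The window at *IL20RA* also held 1 copy of the half-site TGTTCT, searched on both strands, which 17.7% of all windows held. The windows of the other 3 sites held no copy. None of the 4 windows held the shorter core ACANNNTGT, found in 8.19% of all windows, or the forkhead motif TGTTTAC, found in 2.58%. As motifs, the half-site overlaps the right arm of the PRE, and the core overlaps both arms. The copy of the half-site in the *IL20RA* window lay outside the capitals. These letter matches describe the windows and do not show where the receptor touched the DNA.

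The 4 sites differed in score and in their place at the gene. The score deposited by the authors is the −log10 of the MACS p-value multiplied by 10, and over all 11181 sites it ran from 50 to 1965 with a median of 74.5. The site at *IL20RA*, on chromosome 6 from 137368050 to 137368524 (475 bases), had a score of 149.6, which ranked 449th. It lay between annotated genes, its nearer edge 1751 bases upstream of the start of the single *IL20RA* transcript of the files, which runs on the minus strand from 137366298 to 137321108. No other gene of the files came within 50 kb of it.

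At *IL6ST* (chromosome 5, 55230925 to 55290821, minus strand) the site from 55290991 to 55291348 (358 bases) began 169 bases upstream of the start of transcription. It was the closest to a start site of the 4, its score was 90.6 (rank 2320), and its midpoint fell in an exon of the divergent long noncoding RNA *IL6ST-DT* in GENCODE. *IL6ST* was the only gene of the files within 50 kb of it. The 2 members with the largest increases on the log2(FPKM + 1) scale, described below, each had a site whose nearer edge lay less than 2 kb upstream of the start of transcription. The share of all genes with a site this close upstream was not computed. Whether these sites had to do with the increases was not tested.

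The other 2 sites were further from the start of their gene. The *LIFR* site (chromosome 5, 38466931 to 38467439, score 93.8, rank 2143) was 7.62 kb beyond the 3′ end of the gene, and its midpoint was 89.6 kb from the nearer start site of *LIFR*. The gene *EGFLAM*, listed at an FPKM below 0.01 in both libraries, was closer to the site at 1.35 kb. The *OSMR* site (38891804 to 38892168) was in an intron of *OSMR*, past the end of the shorter of its transcripts. At 56.2 its score was near the lowest of the data (rank 10103 of 11181).

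The other 6 members had no site within 50 kb. For *IL6R* and *IL20RB* the nearest site was just outside this distance, at 52.8 and 53.0 kb, both upstream. It was 63.9 kb away for *IL22RA1*, 74.8 kb for *IL10RB* and 171 kb for *IL1R1*, the member with the largest decrease on the log2(FPKM + 1) scale. The nearest site to *IL13RA1* on the X chromosome was 3569 kb away. Thus 4 of 10 members had a site inside or within 50 kb, against 45.6% of all 23287 genes and 52.7% of the 11018 retained genes, so that the share among the members was close to or under the background. For retained genes at least 1.5-fold higher in R5020 (defined below) the share was 61.4% and for those at least 1.5-fold lower it was 61.0%. Within 10 kb the count was also 4 of 10, against 27.4% of all genes and 33.0% of the retained genes. At that distance the share was 44.6% for retained genes at least 1.5-fold higher and 40.6% for those at least 1.5-fold lower.

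**Figure D1:**
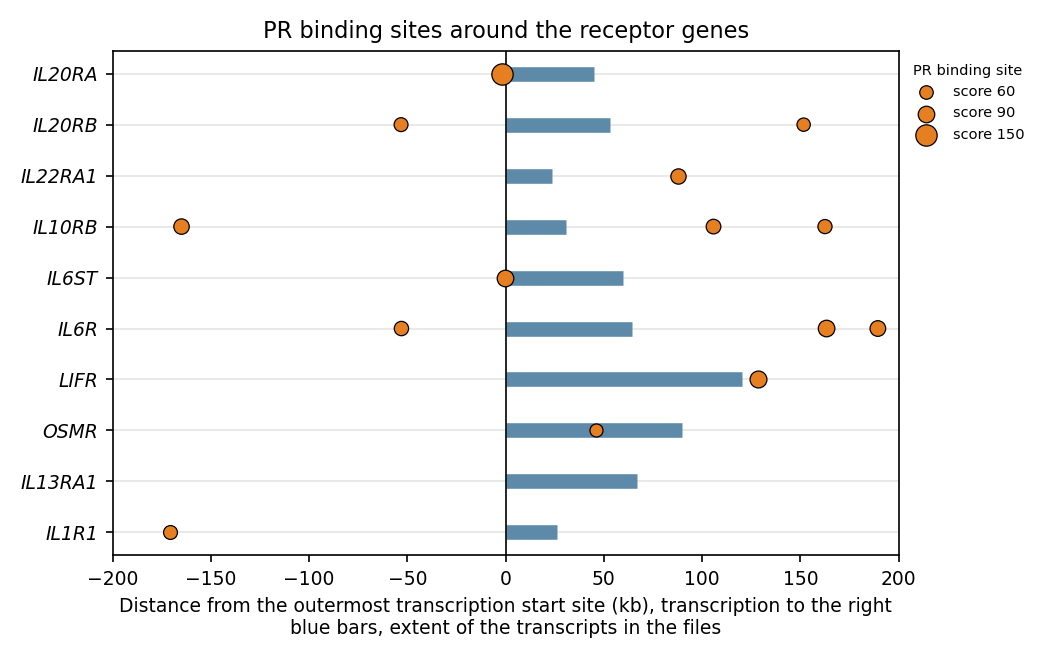
Position of PR binding sites around each of the 10 genes. The x axis gives the distance in kb from the outermost transcription start site with transcription to the right, blue bars the extent of the transcripts, and circles the midpoints of the sites with their area proportional to the score. The sites at *IL20RA* and *IL6ST* sit at the start of the gene, 1.99 and 0.348 kb upstream by their midpoints, and *IL13RA1* has no site in the stretch shown on either side.

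Levels are given as FPKM, the Cufflinks estimate of fragments relative to transcript length and to the size of the library, summed over the transcripts of a gene. A change is log2((FPKM in R5020 + 1) / (FPKM in EtOH + 1)), a scale on which low genes appear to change less than they do. Genes that reached an FPKM of 1 in at least 1 library were retained, and 1.5-fold on this scale served as the threshold. Of the 10 members, 7 were retained and 3 (*IL20RB*, *IL22RA1* and *LIFR*) were not. *IL20RA* and *IL6ST* were at least 1.5-fold higher in R5020, *IL1R1* was at least 1.5-fold lower and 4 members were neither. The same threshold upward was passed by 7.67% of all 11018 retained genes and downward by 4.14%. These counts include 59 higher genes listed at 0 in EtOH and 72 lower genes listed at 0 in R5020. Without the 8 genes that had a failed estimate they were 7.65% and 4.10%. The members were chosen with this contrast in view, so nothing is read from the difference. The median change was 0.04 over the 7 retained members and 0.01 over all retained genes.

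The luminal markers *ESR1*, *PGR*, *GATA3*, *EPCAM*, *CDH1* and *KRT19* had FPKM values from 10.9 to 608 over both libraries. *KRT8* and *KRT18* were at 285 and 174 in R5020 and listed at 0 in EtOH, where the status of every one of their transcripts was a failed estimate. None of the 3 basal and 5 leukocyte markers reached an FPKM of 1, and of 5 stromal and endothelial markers *COL1A1* alone did, at 5.12 in EtOH and 3.31 in R5020. The summed leukocyte markers were 0.770 in EtOH and 0.634 in R5020. In bulk RNA, fewer cells of a type and less RNA per cell cannot be told apart. Transcript length times coverage, divided by 50 nt per read, gave 35151493 reads for EtOH and 36203604 for R5020. This is what the deposited coverage of the listed transcripts amounts to, not the number of reads sequenced or mapped, and the read numbers given for genes are on the same scale. Every transcript of a member had the status OK in both libraries.

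*IL20RA* had the largest increase of the 10 genes. Its FPKM was 2.09 in EtOH and 36.2 in R5020, a change of 3.59 on the log2(FPKM + 1) scale and a plain ratio of 17.3. The coverage of its single transcript, NM_014432 (3682 nt), corresponded to about 742 reads in EtOH and 12240 in R5020. In the order of all genes by level it went from rank 8866 of 23287 to rank 708, and its change was the 31st highest among the 11018 retained genes. Many of the genes above it were listed at 0 in EtOH, and among the 10887 retained genes above 0 in both libraries, a set chosen after seeing the data, its change ranked 1st. The interval that Cufflinks gave was 1.69 to 2.20 in EtOH and 30.9 to 33.3 in R5020, and the R5020 value lay above its own interval. The interval covers the estimate within 1 library and not the spread between cultures.

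Neither its partner chains *IL10RB* and *IL20RB* nor *IL22RA1*, which shares those partners, were among the genes past 1.5-fold. *IL20RB* and *IL22RA1* were not retained, so they could not be counted there. *IL10RB*, the shared chain of the receptors for IL-10, IL-22 and IL-26, was at 5.33 in EtOH and 4.69 in R5020 (change −0.15), from its single transcript NM_000628. *IL20RB*, with the single transcript NM_144717, was at 0.354 and 0.318 (change −0.04), which corresponded to only 66 and 59 reads. *IL22RA1* was at 0.0694 and 0.0799 (change 0.01), with 19 reads in each library, so that a difference of moderate size would not be detectable at this depth.

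The order of the class II chains was therefore different in the 2 libraries. In EtOH the level of *IL10RB* was 2.54 times that of *IL20RA*, and in R5020 the level of *IL20RA* was 7.73 times that of *IL10RB*. *IL20RA* exceeded *IL20RB* 5.92-fold in EtOH and 114-fold in R5020. These ratios are of FPKM values, which are per length, and refer to RNA and not to receptor chains at the cell surface.

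*IL6ST* was the other retained member at least 1.5-fold higher in R5020. Its FPKM was 9.56 in EtOH and 38.7 in R5020 (change 1.91, plain ratio 4.05), with about 8303 and 32443 reads, and the Cufflinks intervals were 9.29 to 9.98 and 38.4 to 39.9. Its change ranked 100th from the highest among the retained genes, and 55th among those above 0 in both libraries. In both libraries all of the signal was assigned to NM_002184, which encodes the full-length membrane protein. NM_175767, which encodes a shortened soluble form, and NM_001190981 were listed at 0 in both libraries. The 3 transcripts share both ends, so the split rests on internal bases.

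*IL6R*, the ligand-binding chain that joins gp130 in the IL-6 receptor, was at 1.32 in EtOH and 1.15 in R5020 (change −0.11), all of it assigned to NM_000565, the transcript of the membrane receptor. Its other transcripts, NM_181359 and NM_001206866, were listed at 0 in both libraries. *IL6ST* exceeded *IL6R* 7.22-fold in EtOH and 33.7-fold in R5020.

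*OSMR*, whose chain joins gp130 in a receptor for oncostatin M, was at 10.2 in EtOH and 10.6 in R5020 (change 0.04). It was the only member with 2 transcripts above 0. The shorter transcript, NM_001168355 (1740 nt), was at 7.32 in EtOH and 7.79 in R5020, and the full-length NM_003999 (5539 nt) at 2.89 and 2.76. The shorter transcript thus held 71.7% of the FPKM in EtOH and 73.8% in R5020. For both transcripts the Cufflinks intervals of the 2 libraries overlapped, and no interval was computed for the share. The summed levels of *OSMR* and *IL6ST* were close in EtOH (*IL6ST* at 0.937 times *OSMR*), whereas in R5020 *IL6ST* was at 3.67 times *OSMR*. These ratios rest on a sum held mostly by the shorter *OSMR* transcript. *IL6ST* was above the full-length *OSMR* transcript alone in both libraries.

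*LIFR*, the second chain of the receptor for leukaemia inhibitory factor, stayed below the FPKM of 1 that a retained gene had to reach. It was at 0.172 in EtOH and 0.541 in R5020, a change of 0.40 with the pseudocount of 1 and a plain ratio of 3.15. The low FPKM belongs to a transcript of 10258 nt, and the coverage corresponded to about 168 reads in EtOH and 514 in R5020, with Cufflinks intervals of 0.134 to 0.209 and 0.467 to 0.613. All of it was assigned to NM_001127671, which starts at 38556748. NM_002310, which starts further upstream at 38595507, was listed at 0 in both libraries. Without the filter and the pseudocount, an alternative chosen after seeing the data, *LIFR* joined *IL20RA* and *IL6ST* as at least 1.5-fold higher, and 1988 of 15680 genes above 0 in both libraries were then higher.

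*IL13RA1*, a chain of the receptors for IL-13 and IL-4 with the single transcript NM_001560, was at 5.14 in EtOH and 6.63 in R5020 (change 0.31, ratio 1.29). The Cufflinks intervals, 5.24 to 6.10 and 6.61 to 7.63, did not overlap, and the change did not reach 1.5-fold. Its partner *IL4R* was at 3.12 and 2.87 (change −0.09).

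*IL1R1* was the only retained member at least 1.5-fold lower in R5020, and its single transcript was NM_000877. Its FPKM was 13.0 in EtOH and 2.82 in R5020 (change −1.87), so that the level in EtOH was 4.61 times that in R5020, with about 5933 and 1222 reads. Its change was the 68th lowest among the 11018 retained genes, and the 9th lowest among the 10887 of them above 0 in both libraries. The Cufflinks interval in EtOH, 14.4 to 15.8, lay above the FPKM itself, and the interval in R5020 was 2.82 to 3.51. The co-receptor gene *IL1RAP* was at 2.68 in EtOH and 1.96 in R5020 (change −0.31), so *IL1R1* stood at 4.87 times *IL1RAP* in EtOH and at 1.44 times in R5020.

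In EtOH the order of the members from the highest level was *IL1R1*, *OSMR*, *IL6ST*, *IL10RB*, *IL13RA1*, *IL20RA*, *IL6R*, *IL20RB*, *LIFR* and *IL22RA1*. In R5020 it was *IL6ST*, *IL20RA*, *OSMR*, *IL13RA1*, *IL10RB*, *IL1R1*, *IL6R*, *LIFR*, *IL20RB* and *IL22RA1*. Neighbours such as *IL10RB* and *IL13RA1* in EtOH (5.33 and 5.14) or *IL6ST* and *IL20RA* in R5020 (38.7 and 36.2) cannot be ordered from 1 library each. Of the 16 transcripts of the members, 11 were above 0, and for 5 of these, the single or leading transcripts of *IL20RA*, *IL6ST*, *LIFR*, *IL13RA1* and *IL1R1*, the Cufflinks intervals of the 2 libraries did not overlap. How often this held over all transcripts of the files was not computed, so nothing is read from that count. The FPKM itself lay outside its own interval in 4 of 22 values, so the intervals are given as deposited and not used as a test.

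**Figure D2:**
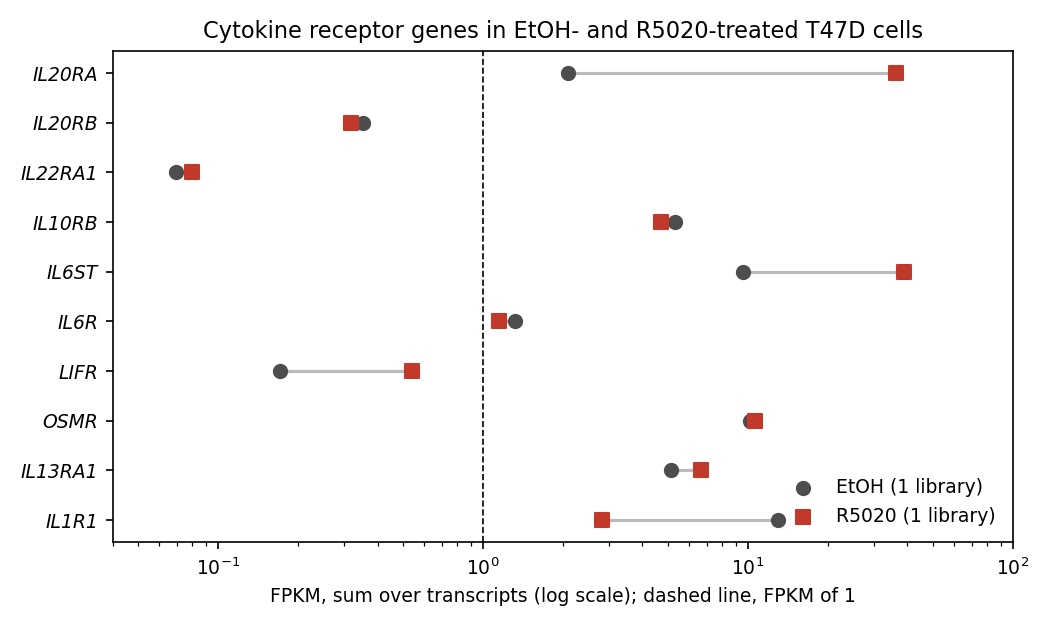
FPKM of the 10 genes in EtOH (grey circles) and R5020 (red squares) on a log axis, 1 library per condition, with no error bars. *IL20RA* moves from 2.09 to 36.2 and *IL6ST* from 9.56 to 38.7, *IL1R1* moves from 13.0 to 2.82, and *LIFR* moves from 0.172 to 0.541 while staying left of the dashed line at an FPKM of 1.

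**Figure D3:**
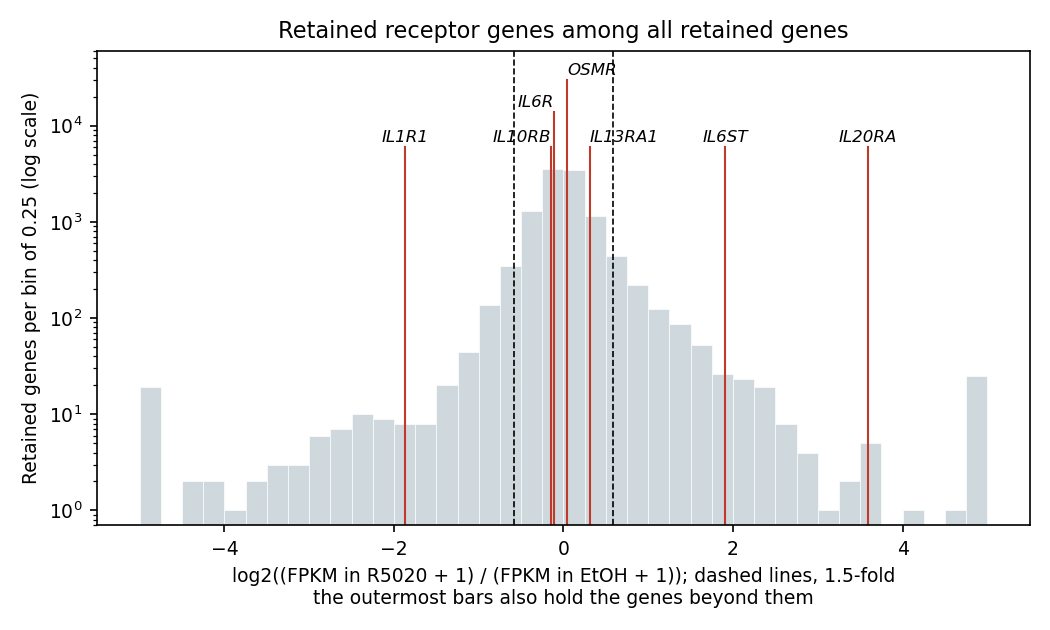
Number of retained genes in bins of the change on the log2(FPKM + 1) scale (grey bars, log axis, the outermost bars also holding the genes beyond them), with the 7 retained members as red lines. *IL1R1* (−1.87), *IL6ST* (1.91) and *IL20RA* (3.59) lie outside the dashed lines at 1.5-fold, and *IL10RB*, *IL6R*, *OSMR* and *IL13RA1* between them.

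The other genes of these pathways were taken from lists of 108 receptors, ligands, kinases, transcription factors, inhibitors and adaptors, of which the files held 107. Among the 49 that passed the filter, *JAK2* and *STAT5A* were higher and *IL11RA* was lower by 1.5-fold or more. Those counts were 2 and 1 of 49, beside a background of 7.67% and 4.14%. With a pseudocount of 0.1 the lower count was 6 of 49, beside 787 of 11018 genes. The lists leave out the members, which were picked with their changes known, so nothing is read from these counts. Their median change was −0.02.

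Among 48 other cytokine receptor genes, 19 were retained, none was at least 1.5-fold higher and 1 was lower. Over all retained genes the shares were 7.67% and 4.14%. The members had been taken out with their changes known, so nothing is read from these counts. *IL11RA*, which encodes the ligand-binding chain that joins gp130 to form the IL-11 receptor, was at 1.96 in EtOH and 0.926 in R5020 (change −0.62), with about 304 and 133 reads. The other 18 ranged from −0.56 to 0.41. By plain ratio *EPOR*, *IL17RE* and *SIGIRR* were also past 1.5-fold lower, and none of the 18 was past it higher. The highest level was that of the prolactin receptor gene *PRLR*, 152 in EtOH and 162 in R5020 (change 0.10).

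Nearly all ligand genes were at very low levels. Of 23 ligand genes of the member receptors, 22 were below an FPKM of 1 in both libraries, and 11 were listed at 0 in both. *IL19*, *IL20*, *IL22*, *IL24* and *IL26*, which encode the ligands of receptors containing the *IL20RA* or *IL22RA1* chain, were among the latter, as were *IL6* and *OSM*. The exception was *CTF1*, which encodes cardiotrophin 1, a ligand of the gp130 and *LIFR* chains. It was at 34.2 in EtOH and 22.6 in R5020, a change of −0.58 that fell just short of 1.5-fold. With the R5020 values rescaled to a median log2 ratio of 0, a factor of 1.01, it passed.

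Of the 4 JAK kinase genes *JAK2* was higher in R5020, at 0.895 in EtOH and 3.48 in R5020 (change 1.24, ratio 3.89), with about 457 and 1708 reads. *JAK1*, the most highly expressed, was at 15.9 and 22.8 (change 0.50). Of the STAT genes *STAT5A* was at 0.183 and 2.45 (change 1.55), from about 55 reads in EtOH to 898 in R5020. *STAT3*, the main STAT downstream of gp130 and of the *IL20RA* chain, was at 21.2 and 29.6 (change 0.47) and *STAT6*, which acts downstream of the *IL13RA1* chain, at 12.4 and 9.60 (change −0.34). *JAK2* and *STAT5A* also belong to prolactin receptor signalling. *JAK2* had no PR binding site nearer than 305 kb, whereas *STAT5A* had 5 sites inside or within 50 kb.

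Of the 14 genes that restrain JAK and STAT signalling 10 were retained, and none of these was past 1.5-fold on the log2(FPKM + 1) scale. *PIAS3* came closest, at 12.5 in EtOH and 19.2 in R5020 (change 0.58), and with its plain ratio of 1.53 it passed with a pseudocount of 0.1 and with none. *SOCS3*, a feedback inhibitor that gp130 signalling induces through *STAT3*, was at 0.214 and 0.0689, about 57 and 18 reads, and was not retained. *CISH*, another feedback inhibitor, was at 0.561 in EtOH, 4.01 times its FPKM in R5020, on about 101 and 27 reads, and was not retained either. *SOCS2*, also not retained, went the other way, from 0.275 in EtOH to 0.637 in R5020 on about 54 and 130 reads. *SOCS1*, not retained, was at 0.0949 and 0.0981. Of the 11 genes of IL-1 receptor signalling 9 were retained, with changes from −0.21 to 0.36, and *MYD88* was at 8.00 and 8.67 (change 0.10). *CTF1*, *PIAS3*, *SOCS1*, *SOCS2*, *SOCS3*, *CISH*, *MYD88*, *PRLR*, *EPOR*, *IL17RE*, *SIGIRR* and the partner chains *IL4R* and *IL1RAP* were picked for naming after their values were seen.

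**Figure D4:**
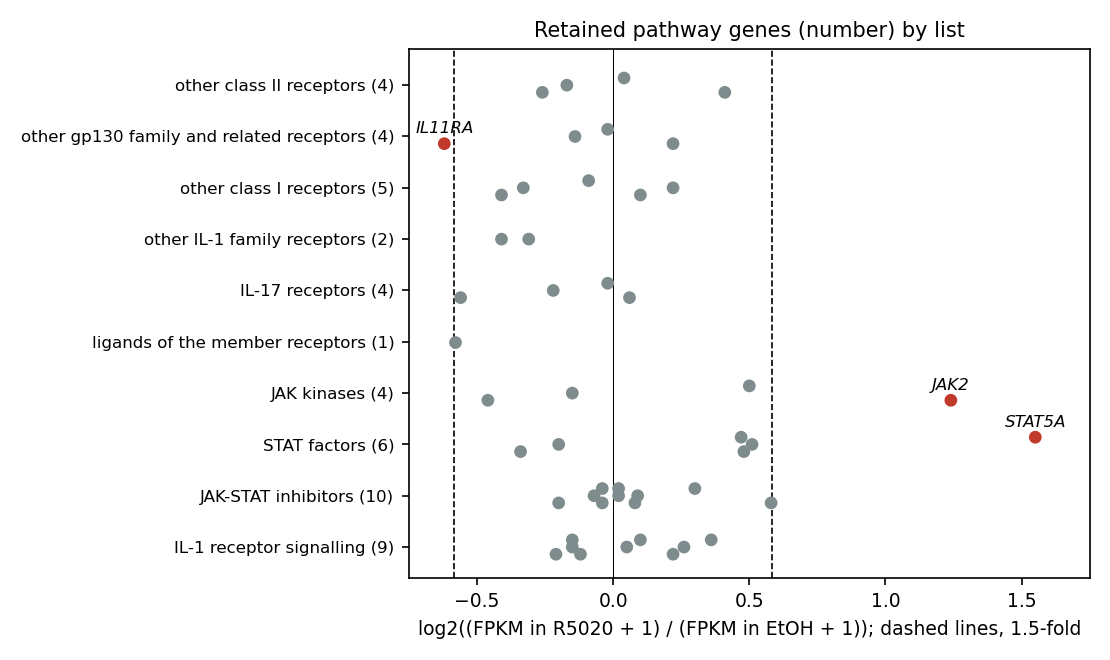
Change of the 49 retained pathway genes on the log2(FPKM + 1) scale, by list, 1 point per gene, with red points past 1.5-fold (dashed lines). *JAK2* (1.24) and *STAT5A* (1.55) lie to the right of the lines and *IL11RA* (−0.62) to the left, and all other points lie between the lines.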

How the data were processed

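RNA was measured in 1 EtOH and 1 R5020 library and PR binding in 1 ChIP-seq library. Input DNA served the authors as the ChIP control and was not used here by itself. The authors trimmed reads where needed, placed them on hg19 by TopHat, kept those with a single position and deposited, for each RefSeq transcript, the FPKM from Cufflinks with its interval and the coverage, a signal of depth over the transcript. For PR binding they aligned with Bowtie 1.1.2, called sites with MACS against input and deposited a score of 50 or more per site. Whether counting used strand is not given in the sources used here.

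FPKM was summed by gene symbol. FPKM does not give counts, and no count test or p-value was used. Distances were taken from the edge of a site to the nearest transcript of a gene, except where the midpoint is named. Strand and annotation came from GENCODE release 44 lifted to GRCh37, the assembly of hg19, whose chromosomes contain every locus the files place on them. Sequences are from the same assembly, and 3 sites on sequences outside it gave no window. No column of unknown sample was present (0 such columns).

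The members and gene lists were chosen with earlier results of these data known. Named are all members, every list gene past 1.5-fold, the JAK, STAT and SOCS genes with FPKM of 10 or more in 1 condition, the 3 retained genes nearest to each member past 2-fold, every site within 50 kb of a member and every transcript of a member with FPKM of 0.1 or more, except 1 gene that is not reported here. Alternatives were a pseudocount of 0.1 or none, other filters, 2-fold, rescaled FPKM, the highest transcript, the midpoint of the interval, other distances and sites with a score of 100 or more. The fold calls and site distances were tested on simulated data, and all planted changes and distances were recovered. The changes were planted in genes well above an FPKM of 1 with little added noise. This does not test changes near that FPKM, the spread between cultures or the motif search. Python 3.11.15, pandas 2.3.3, numpy 2.4.6 and matplotlib 3.10.9 were used.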

Additional observations from a re-analysis of the deposited data

How the results depend on the processing

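*IL20RA*, *IL6ST* and *IL1R1* kept their direction and stayed past 1.5-fold under every alternative run, with changes from 3.49 to 4.11, from 1.90 to 2.02 and from −2.21 to −1.87, respectively. Under the same alternatives *LIFR* ranged from 0.39 to 1.66. With a pseudocount of 0.1 or none, 3 pathway genes in place of 2 were higher (*PIAS3* joined). The number at least 1.5-fold lower went from 1 to 6 with a pseudocount of 0.1 and also with none (*CTF1*, *EPOR*, *IL11RA*, *IL17RE*, *JAK3* and *SIGIRR*), to 2 with rescaled FPKM, and to 0 at 2-fold. It stayed 1 with the highest transcript, where the gene was *PTPN6* in place of *IL11RA*. With an FPKM of 1 required in both libraries the pathway genes past 1.5-fold were 0 higher and 0 lower, since *JAK2*, *STAT5A* and *IL11RA* were below 1 in 1 library. With neither pseudocount nor filter, an alternative added after seeing the data, they were 11 and 11, and *LIFR* became a 3rd member on the higher side, with 3 in place of 2. Over all genes the number at least 1.5-fold lower was 456, 787 with a pseudocount of 0.1, 773 with none and 299 with an FPKM of 1 in both libraries. The number at least 1.5-fold higher was 845 of 11018 genes, and 1092 of 11018 with a pseudocount of 0.1. It was 1068 of 10887 with none and 662 of 10225 with an FPKM of 1 in both libraries. At 2-fold, 378 genes were higher and 144 lower. With neither pseudocount nor filter they were 1988 and 2138. Members with a PR binding site numbered 4 within 50 kb, 1 inside the locus (17.9% of all genes), 8 within 100 kb (57.1% of all genes), 3 within 50 kb of a start site and 1 with sites of a score of 100 or more, which was *IL20RA*. For the last 2 of these counts the share of all genes was not computed, so nothing is read from them. Leaving out genes with a failed estimate, also added later, changed no count of members or pathway genes. No paired analysis was possible because each condition had 1 library, and no replicate could be left out.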

Other observations

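Among the 11018 retained genes, those whose levels were most like the member's were found by the distance between genes in log2(FPKM + 1) over the 2 libraries, a measure that rests on 2 values per gene. Nearest to *IL20RA* were *DNAJB4* (2.29 in EtOH and 20.7 in R5020, distance 0.78), *TIPARP* (4.37 and 29.9, distance 0.84) and *RUNX1* (4.25 and 25.0, distance 0.92), all with smaller changes than *IL20RA* itself. Nearest to *IL6ST* were *GREB1* (8.44 and 39.9, distance 0.17), *SNORA61* (9.15 and 33.2, distance 0.22), a small nucleolar RNA, a class without poly(A) tails, and *GINS2* (11.3 and 34.0, distance 0.29). Nearest to *IL1R1* were *PXK* (11.7 and 3.15, distance 0.18), *LMCD1* (9.86 and 3.36, distance 0.41) and *EPN3* (9.27 and 2.75, distance 0.45).

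*OSMR* and *LIFR* both lie on chromosome 5 with 1 PR binding site each within 50 kb, and *RICTOR*, 45.9 kb from the *OSMR* site, was at 4.69 in EtOH and 5.15 in R5020 (change 0.11). The only other gene of the files that overlaps a member is *MIR3650*, at *LIFR*, listed at 0 in both libraries.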
